A study of Mus musculus with 12 samples.

Results

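Interferon-stimulated genes were followed as a group of 41 genes of the 20325 in the expression files of mouse pre-iPSCs. The members were chosen by name, as host genes known to be induced by interferon or to act against viruses. All 41 were in the files, and 35 of them had enough reads to be tested. Pre-iPSCs are partially reprogrammed cells, arrested before the induced pluripotent state. The study grew them for 48 h in DMSO (the solvent control), ascorbic acid (AA, 50 μg ml−1), 2i (a MEK inhibitor at 1 μM plus a GSK inhibitor at 3 μM) or AA+2i, and sequenced RNA from 3 biological replicates of each condition, labelled A, B and C. The comparisons ask what AA and 2i each change in these cells and whether the combination differs from its parts. In all 4 conditions the cells were in serum-containing embryonic stem cell medium without the irradiated feeder cells on which the line was maintained. Such lines are picked as colonies after retroviral delivery of Oct4, Sox2, c-Myc and Klf4 to embryonic fibroblasts with a Nanog-GFP reporter, so the libraries represent clonal cells that carry these transgenes.

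Type I interferons bind a receptor whose Janus kinases activate transcription factors, among them Stat2, which works with Irf9 at the interferon-stimulated response element. The gamma-activated site serves the response to interferon gamma. The induced genes encode sensors of viral nucleic acid, enzymes that degrade or withhold viral RNA, guanylate-binding GTPases and parts of the antigen processing machinery. Embryonic stem cells are known for a weak interferon response and for a basal level of some of these genes that needs no interferon.

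Promoters were read first, to see which members carry these elements near their start. RefSeq promoter windows on GRCm38.p6, from 250 bases before to 50 bases after the transcription start, were matched to 31 of the 41 members. The core of the interferon-stimulated response element, searched as GAAANNGAA on both strands, was present for 19 of these 31 genes (61.3%), against 9.76% of the 27025 genes with a window. The gamma-activated site, searched as TTCNNNGAA, which reads the same on both strands, was present for 8 of 31 (25.8%), against 9.55% of all genes. Matches of one motif can overlap one another, and in the Bst2 window a match of one motif overlaps a match of the other. A match is a description of the letters and not a measurement of binding.

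The stretches below are shown because their genes differ in level or response. Capitals mark motif matches, and each stretch is written 5′ to 3′ on the strand of its gene. Isg15 (chr4:156200857-156200916, minus strand) and Ifit1 (chr19:34640767-34640826, plus strand) are textbook interferon targets with 3 matches each. Rsad2 (chr12:26456538-26456597, minus strand) and Ifih1 (chr2:62646334-62646393, minus strand) differed between AA and 2i.
Isg15: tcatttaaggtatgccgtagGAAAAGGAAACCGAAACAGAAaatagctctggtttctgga
Ifit1: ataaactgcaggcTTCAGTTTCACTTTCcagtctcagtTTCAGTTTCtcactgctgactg
Rsad2: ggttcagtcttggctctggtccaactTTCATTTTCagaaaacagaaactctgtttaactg
Ifih1: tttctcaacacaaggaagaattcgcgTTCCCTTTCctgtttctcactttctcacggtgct

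Irf1 (chr11:53769898-53769957, plus strand) carried the gamma-activated site without the response element core.
Irf1: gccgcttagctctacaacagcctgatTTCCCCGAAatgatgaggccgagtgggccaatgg

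The Oas1 genes are neighbours on chromosome 5. Oas1a (chr5:120907526-120907585, minus strand) and Oas1g (chr5:120887612-120887671, minus strand), aligned on their motif, shared 59 of 60 bases. The last 60 bases before the start of Oas1h (chr5:120861362-120861421, plus strand) matched Oas1a at 19 of 60 positions. These stretches were set side by side from their starts with no alignment, so that count cannot be set against the 59. Neither motif was found in the Oas1h window.
Oas1a: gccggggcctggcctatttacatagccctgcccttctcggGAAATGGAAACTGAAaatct
Oas1g: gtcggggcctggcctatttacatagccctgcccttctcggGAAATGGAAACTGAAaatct
Oas1h: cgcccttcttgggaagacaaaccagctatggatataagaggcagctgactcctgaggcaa

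**Figure D1:**
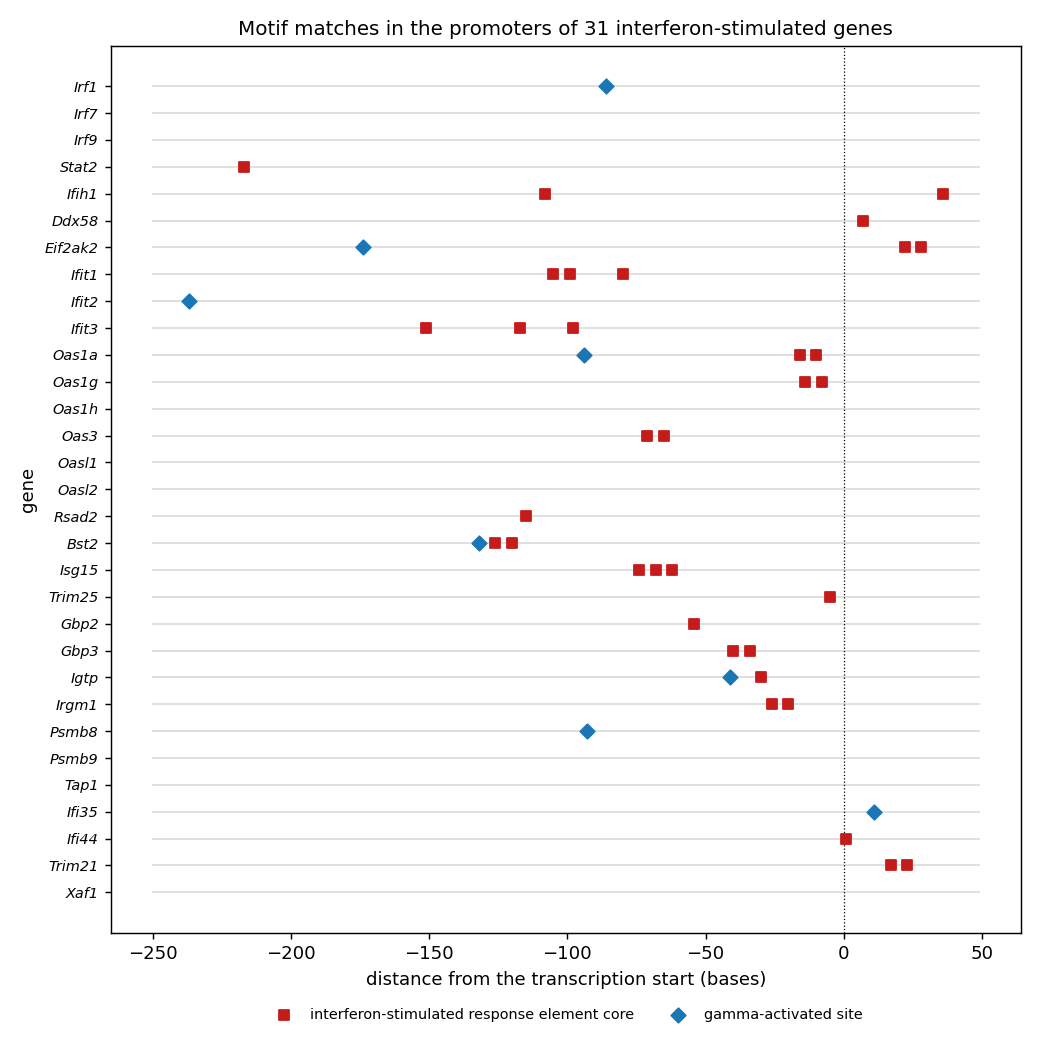
Motif matches in the promoter windows of 31 interferon-stimulated genes. The x axis is the distance in bases of the middle of each match from the transcription start (dotted line), squares are matches of the interferon-stimulated response element core, diamonds are matches of the gamma-activated site, and grey lines are the windows. Squares lie on 19 of the 31 lines, and the lines of Oas1h, Irf9, Oasl2 and Psmb9 hold no match.

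The libraries differed in ways that touch these genes. Expected counts summed to between 16173322 and 54392719 per library, with the highest sums in DMSO B and AA B. Counts also varied with the GC content of the transcript, and in DMSO A genes of 60% GC lay 1.68 lower on the log2 scale than the mean of the 12 libraries. Cdh1 (E-cadherin), which marks the pre-iPSC state, was measured at 31.8 to 143 TPM. The reprogramming factor Pou5f1 was at 1865 to 9673 TPM, a value that may include transgene reads. Fut4, a gene whose enzyme can make the SSEA1 antigen, had at most 7 counts in any library. The paper reports SSEA1 on the surface of such lines, and the antigen itself was not measured here. TPM, the share of a gene among all transcripts of a library, is a level per length. Markers of other cells were detected unevenly. Of 9 fibroblast markers Thy1 reached 15.99 TPM, Col1a2 2.64 TPM and Twist1 2.54 TPM, whereas Dcn had at most 6 counts and Lum 0 in all 12 libraries. Of 7 blood cell markers Cd68 was at 9.56 to 28.7 TPM and Cd14 at 1.58 to 6.33 TPM, whereas Ptprc had at most 2 counts and Emr1 0.

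Most members were expressed without added interferon, at very unequal levels. The mean over the 12 libraries was at or above 10 TPM for 15 members, between 1 and 10 TPM for 15 and under 1 TPM for 11. Bst2, which encodes tetherin, a protein that holds budding virus at the cell surface, was the most abundant at 202 to 725 TPM and made up between 31.8% and 70.7% of the summed TPM of the 41 members. Irf1 followed at a mean of 67.7 TPM and Ddx58 at 37.1 TPM. Of the members, 8 were under 1 TPM in every library, and 6 members were left untested by the minimum of 10 counts in 3 libraries, namely Ifit1, Ifit3, Mx2, Usp18, Ifi44 and Rtp4. None of these 6 had more than 21 counts in any library. Of the 19 interferon ligand genes in the files, 17 had 0 counts in all 12 libraries, Il28a had at most 1 count and Ifnz at most 15.

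**Figure D2:**
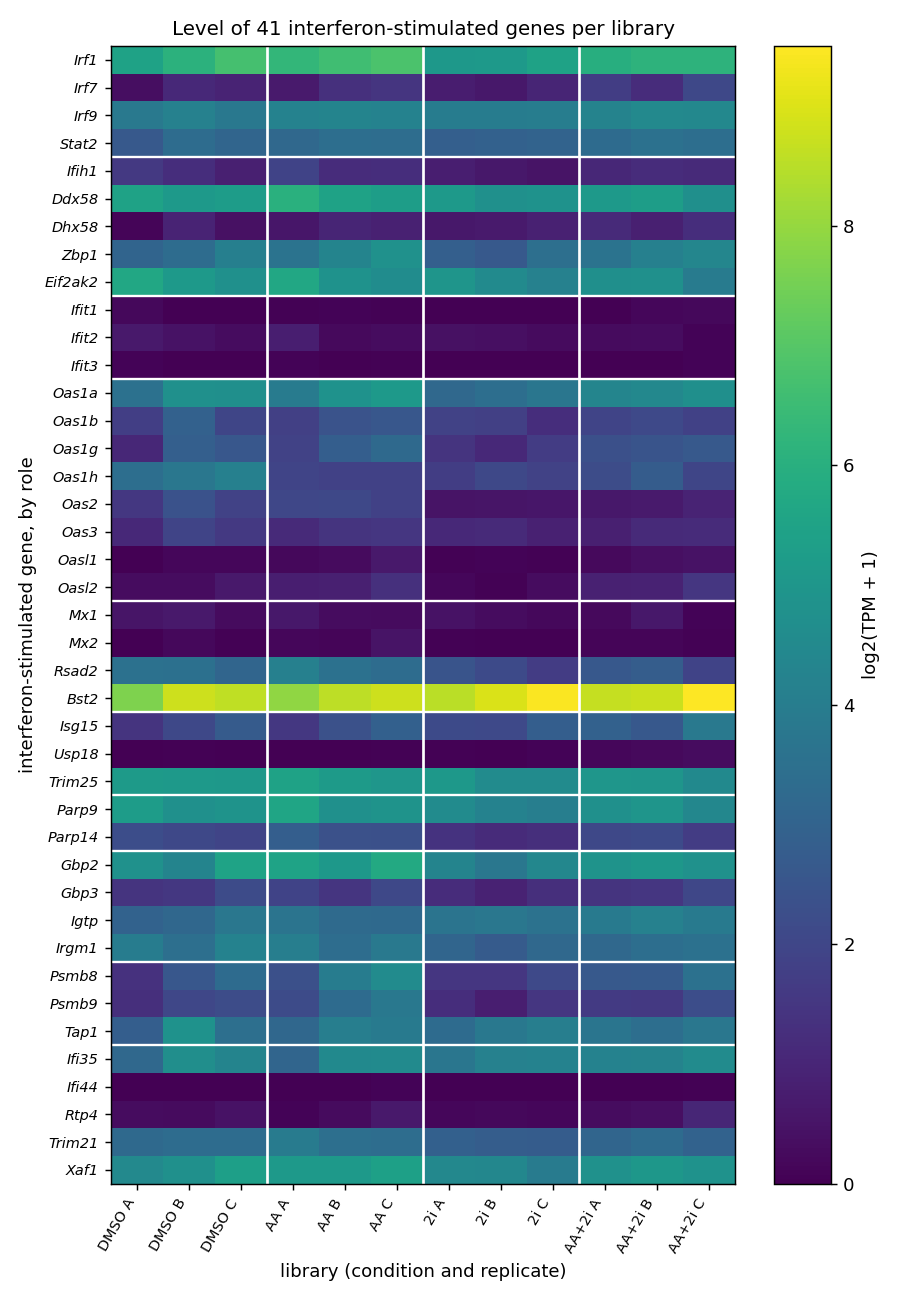
Level of each of the 41 interferon-stimulated genes (rows, ordered by role) in each of the 12 libraries (columns, grouped by condition), as log2(TPM + 1). Bst2 is the brightest row in every library, and the rows of Ifit1, Ifit3, Usp18 and Ifi44 stay near 0.

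Summed over members the conditions overlapped, but the mean log2 level of the members was lowest with 2i. The mean of log2(TPM + 1) over the 41 members was 2.38, 2.74 and 2.75 with DMSO, 2.69, 2.79 and 2.94 with AA, 2.24, 2.17 and 2.28 with 2i. With AA+2i it was 2.56, 2.66 and 2.70 (replicates A, B and C). The 3 libraries with 2i alone lay below the other 9. No such mean was taken over all genes. On this scale the median change of all genes with 2i was also shifted down, as given at the end. The plain sum of TPM did not separate the conditions (661, 770 and 993 TPM with 2i against 584, 881 and 896 TPM with DMSO), and without Bst2 it was 298, 270 and 291 TPM with 2i against 382, 446 and 510 TPM with DMSO. In a sample of many cells, fewer cells that express a gene and less RNA per cell cannot be told apart.

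With AA against DMSO, 1 of the 35 tested members passed and it fell, namely Oas1h. In edgeR's quasi-likelihood test at a Benjamini-Hochberg adjusted p under 0.05, the share of all 13400 tested genes was 0.866% up and 0.47% down. The median log2 fold change was 0.33 over the members and −0.01 over all genes, and 28 of 35 members had a positive value. All 3 AA libraries lay above all 3 DMSO libraries for 4 members (Irf9, Oasl1, Oasl2 and Parp14), against 5.34% of all genes. They lay below for Oas1h alone, against 4.84%. Such numbers of members and genes, here and below, were taken on counts normalised for library size and not on TPM. The call of Oas1h held without any 1 library and was lost without all 4 libraries of any 1 letter. No member rose past the threshold in edgeR, DESeq2 or limma, and 4 had a positive change at an unadjusted p under 0.05 in edgeR, as did 676 of the 13400 genes.

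With 2i against DMSO, 4 of 35 members passed and all fell, namely Oas1h, Oas2, Rsad2 and Parp14, against 2.83% of all genes down and 1.59% up. The median log2 fold change of the members was −0.52, with 26 of 35 values negative, and that of all genes −0.02. On normalised counts, all 3 libraries with 2i lay below DMSO for 7 members, against 10.7% of all genes. They lay above for Irf9 alone, against 9.25%, although in TPM the 2i libraries of Irf9 lay below DMSO B. No member rose in edgeR, DESeq2 or limma, and none had a positive change at an unadjusted p under 0.05 in edgeR, against 848 of the 13400 genes. The 4 that fell encode a sensor of viral RNA that makes oligoadenylate (Oas2) and its relative Oas1h, viperin (Rsad2), which makes a chain-terminating nucleotide, and an ADP-ribosyltransferase (Parp14). The count was 4 without AA A, 3 without AA C or AA+2i C and 2 without any 1 of the other 9 libraries, when Oas1h and Oas2 were the calls that held. Without all libraries lettered B it was 0, and without those lettered C neither Oas1h nor Oas2 was called.

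With AA+2i against DMSO, Irf9 rose and Oas1h and Oas2 fell, against 3.93% of all genes up and 4.41% down. The median log2 fold change of the members was 0.11 and that of all genes −0.02. Under limma on log2(TPM + 1) the members' median turned to −0.033, with that of all genes at −0.15. On normalised counts, the 3 combined libraries lay above DMSO for 8 members, against 15.4% of all genes, and below for 3, against 15.6%. Of these 8, Stat2, Dhx58 and Bst2 overlapped DMSO in TPM. Without DMSO C the median was 0.53, and it was 0.012, 0.016 and 0.049 without DMSO A, DMSO B and AA+2i C. The count of 3 was 1 without AA+2i C and 2 without any 1 of DMSO A, 2i A, AA+2i A, AA B, 2i B, AA+2i B, AA C or 2i C.

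Set against each other, AA and 2i differed in 8 of 35 members, each of them higher with AA, against 5.88% of all genes higher and 3.57% lower with AA. These were Oas2, Parp14, Rsad2, Psmb9, Oasl2, Ifih1, Irf1 and Trim21. The median log2 difference (AA less 2i) was 0.72 over the members and 0.00 over all genes, and 29 of 35 were positive. On normalised counts, all 3 AA libraries lay above all 3 with 2i for 14 members, against 13.3% of all genes. They lay below for Igtp alone, against 12.2%, and in TPM the Igtp libraries of these groups overlapped. None was lower with AA in edgeR, DESeq2 or limma, or at an unadjusted p under 0.05 in edgeR, against 1068 of the 13400 genes. Of these 8 calls, those of Oas2, Parp14 and Rsad2 held when any 1 of the 12 libraries was left out. The count of members called was 8 without the replicates lettered A, 0 without those lettered B and 2 without those lettered C. Without letter A the calls of Ifih1, Oasl2 and Trim21 were lost, so that count of 8 includes other members. Single libraries left out gave counts as low as 3 (2i A or 2i B), 4 (AA B or AA C) and 5 (2i C). The 9 fibroblast and feeder markers summed to 9.73 to 20.9 TPM with AA and 5.26 to 6.04 TPM with 2i, with Thy1 the most abundant with AA, and Thy1 was higher with AA by 3.31 ± 0.54 (SE, log2; edgeR adjusted p = 0.00265). In the same comparison Postn was lower with AA (−3.56), and Lum stayed at 0. The 7 blood cell markers summed to 12.5 to 24.5 TPM with AA and 12.7 to 14.3 TPM with 2i, and Csf1r, at most 13 counts, was lower with AA (−2.59). The part of these markers in the result was not tested.

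No member passed the test of the interaction, which asks whether the combination departs from the sum of its parts and which 0.0149% of all genes passed. The members' median was 0.35 and that of all genes 0.00. At an unadjusted p under 0.05 in edgeR there was 1 member, Oas1h, and the same gene was the 1 call of DESeq2 and of limma.

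**Figure D3:**
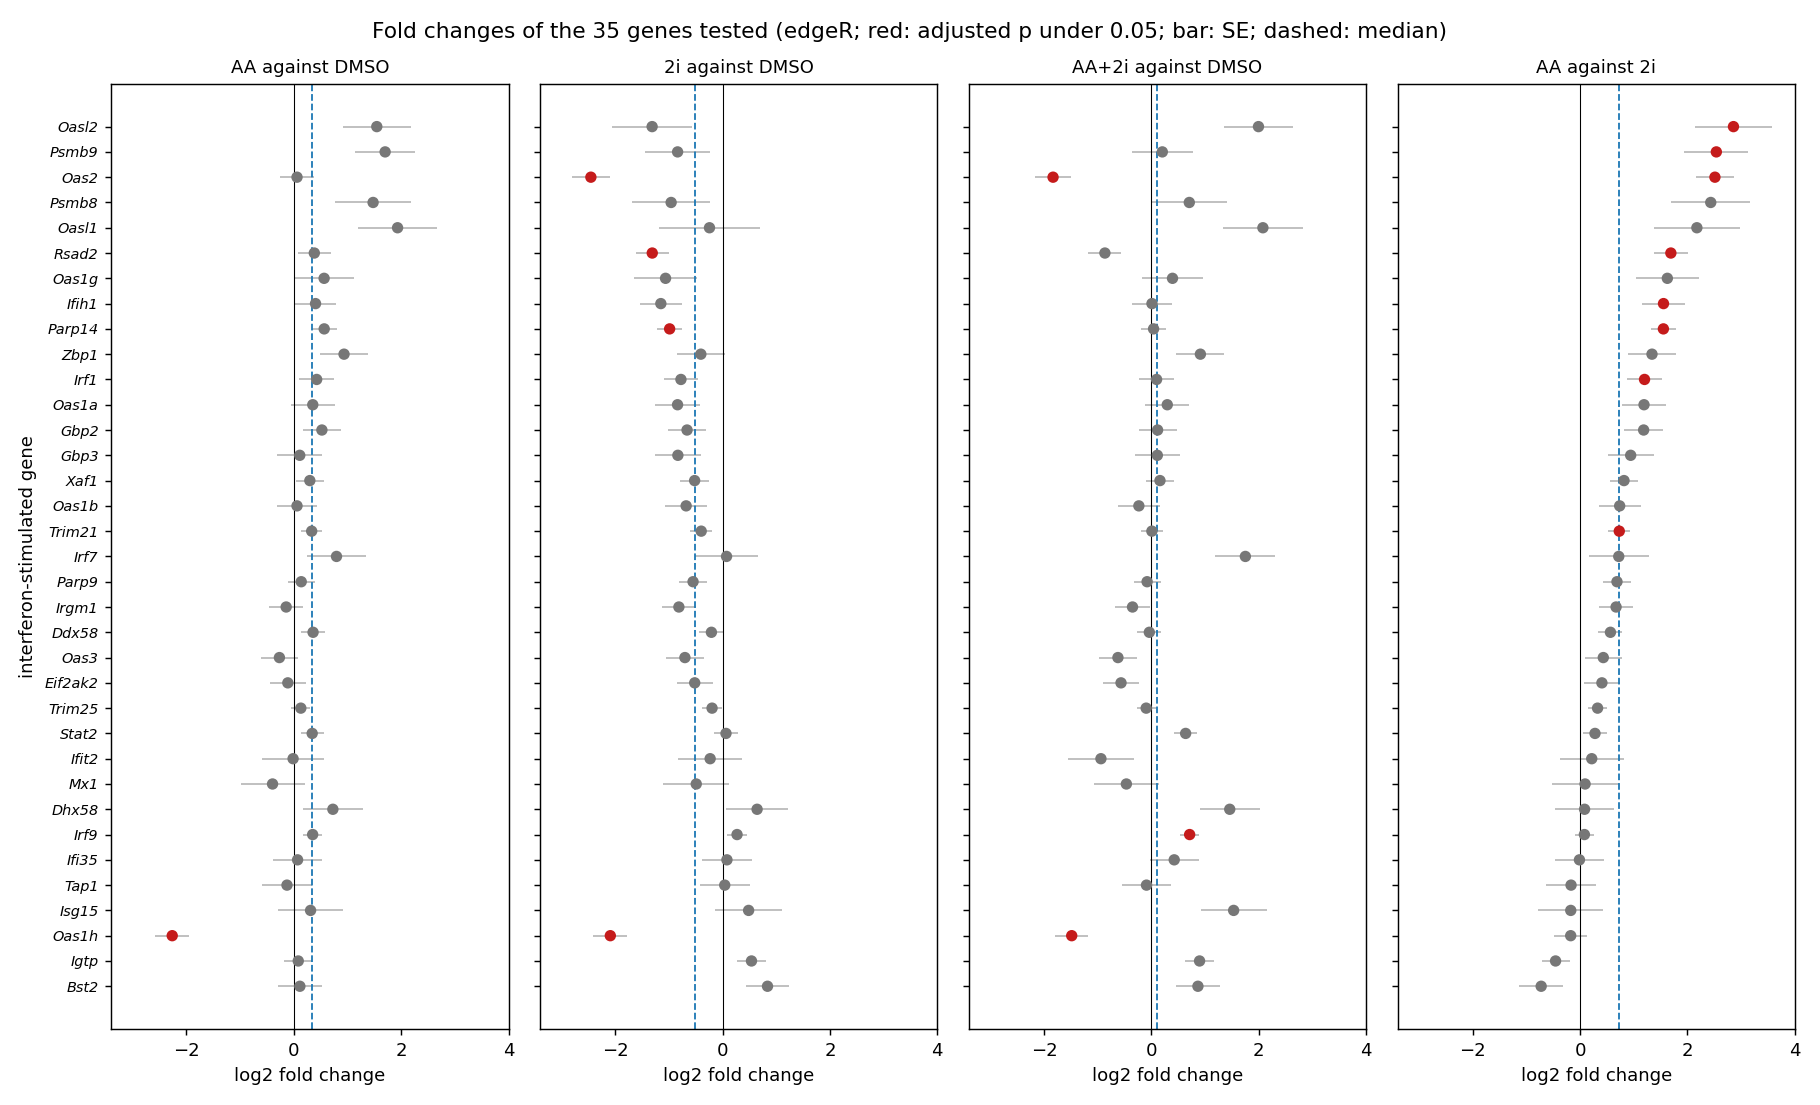
Log2 fold changes (x axis) of the 35 tested interferon-stimulated genes (y axis, ordered by the difference between AA and 2i) in 4 comparisons, from edgeR with 3 libraries a condition. Points are estimates, bars are standard errors, red points passed an adjusted p under 0.05 and the dashed lines are the members' medians, which lie at 0.33, −0.52, 0.11 and 0.72 from left to right.

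Among the transcription factors that carry the signal, Irf1, which is induced by interferon gamma, was the most abundant. It was measured at 43.8, 68.7 and 104 TPM with DMSO (A, B and C), 77.2, 95.6 and 112 TPM with AA, 32.9, 33.9 and 43.8 TPM with 2i and 60.5, 70.04 and 69.3 TPM with AA+2i. The AA libraries lay above those with 2i, whereas the DMSO libraries ranged widely, from near the highest 2i value to near the highest AA value. The log2 difference between AA and 2i was 1.201 ± 0.324 (SE; edgeR adjusted p = 0.0395). Without any 1 of 9 libraries (2i A, AA+2i A, DMSO B, AA B, 2i B, AA+2i B, AA C, 2i C or AA+2i C) that p lay between 0.0501 and 0.151. Irf1 lies at chr11:53583516-53591876 on mm9.

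Irf9, the DNA-binding partner of Stat2, gave the one rise among members in edgeR. DESeq2 called 5 members up with AA+2i, Irf9 among them, and limma called 0. Its levels were 13.3, 17.0 and 12.9 TPM with DMSO, 17.7, 18.4 and 17.4 TPM with AA, 14.7, 14.9 and 15.2 TPM with 2i and 18.0, 21.3 and 20.7 TPM with AA+2i. The combined libraries lay above DMSO, with DMSO B the closest. Irf9 rose by 0.71 ± 0.18 (SE, log2; edgeR adjusted p = 0.0359) with AA+2i. The call was lost, with an adjusted p of 0.0505 to 0.158, without any 1 of the 10 libraries other than AA A and AA+2i A. It was also lost in limma on log2(TPM + 1) (adjusted p = 0.156), with no count filter (0.0611) and with only the 2 groups compared (0.171). Of the 50-base stretches in its annotated transcripts (mm9 chr14:56222408-56228867), 2.39% also occur in transcripts of another gene. Stat2 stayed between 5.37 and 10.7 TPM and Irf7, which drives later interferon production, between 0.27 and 3.13 TPM, and neither passed in any comparison.

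Of the sensors, Ddx58 (RIG-I) was the most abundant at 25.4 to 64.9 TPM. Ifih1 (MDA5), which recognises long double-stranded RNA, was low, at 1.97, 1.39 and 0.78 TPM with DMSO, 2.79, 1.33 and 1.34 TPM with AA, 0.72, 0.52 and 0.42 TPM with 2i and 1.08, 1.31 and 1.21 TPM with AA+2i. The 2i libraries were the 3 lowest of the 12. Ifih1 (mm9 chr2:62433850-62484312) was higher with AA than with 2i by 1.55 ± 0.39 (SE, log2; edgeR adjusted p = 0.0283). That p was between 0.0554 and 0.117 without AA A, 2i A, 2i B or 2i C. Dhx58 (LGP2), Zbp1 and Eif2ak2 (PKR, the kinase that halts translation) passed in no comparison. Eif2ak2 ranged from 14.4 to 51.2 TPM, with the highest levels in DMSO A and AA A.

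The Oas genes held the members with the largest falls. Some enzymes of this family, not all, make the messenger that activates RNase L, and enzyme activity was not measured here. Oas1h (mm9 chr5:121311430-121323521) was at 9.90, 12.4 and 16.8 TPM with DMSO, 2.86, 2.60 and 2.61 TPM with AA, 2.27, 3.22 and 2.65 TPM with 2i and 3.63, 5.81 and 2.92 TPM with AA+2i. Every treated library lay below every DMSO library. In edgeR, Oas1h fell by 2.27 ± 0.32 (SE, log2) after AA at an adjusted p of 0.00695. The fall was −2.09 ± 0.32 after 2i (adjusted p = 0.00417) and −1.48 ± 0.31 after AA+2i (adjusted p = 0.0137). The 3 comparisons share the DMSO libraries. The calls after AA and after 2i held without any 1 library, and that with AA+2i had an adjusted p of 0.0637 to 0.0681 without AA+2i A or AA+2i C. Without all libraries of a letter, the calls after AA and after AA+2i were lost whichever letter it was. That after 2i was lost without letter B (edgeR adjusted p = 0.189) or letter C. The interaction was 2.87 ± 0.44 (SE, log2; unadjusted p = 4.28e-05; edgeR adjusted p = 0.143).

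Oas1a, with 2 response element cores before its start, was the most abundant Oas gene at 8.17 to 34.6 TPM. Its levels were 10.6, 26.5 and 25.5 TPM with DMSO, 14.3, 27.8 and 34.6 TPM with AA, 8.17, 9.75 and 12.2 TPM with 2i and 19.0, 20.7 and 25.4 TPM with AA+2i. Oas1a and Oas1g passed in no comparison, and 53.0% of the 50-base stretches of Oas1a also occur in another gene, mostly Oas1g, so reads divided between these genes are uncertain. For Oas1h that share was 0.388%. The log2 ratio of Oas1h to Oas1a in TPM was −0.10, −1.09 and −0.61 with DMSO and between −3.73 and −1.60 in the 9 treated libraries. This ratio includes the fall of Oas1h given above and the uncertain reads of Oas1a, and it was not tested.

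Oas2 (mm9 chr5:121180342-121199862) followed 2i rather than AA in these libraries. It was at 1.89, 4.27 and 2.63 TPM with DMSO, 3.09, 3.18 and 2.57 TPM with AA, 0.42, 0.45 and 0.50 TPM with 2i and 0.51, 0.62 and 0.92 TPM with AA+2i. All 6 libraries with 2i lay below the 6 without it. Oas2 fell by 2.45 ± 0.35 on the log2 scale with 2i (SE; edgeR adjusted p = 0.00299) and by 1.83 ± 0.34 with AA+2i (adjusted p = 0.00753), and was higher with AA than with 2i by 2.51 ± 0.35 (adjusted p = 0.00115). With AA against DMSO the value was 0.06 ± 0.32. Leaving out any 1 library changed none of the 3 calls. Without all the libraries lettered B the adjusted p was 0.242, 0.295 and 0.0992 in that order, and without those lettered C it was 0.0592 for 2i against DMSO.

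Oasl2, an oligoadenylate synthetase-like gene, was lowest with 2i. It was at 0.23, 0.26 and 0.57 TPM with DMSO, 0.73, 0.77 and 1.48 TPM with AA, 0.12, 0.03 and 0.23 TPM with 2i and 0.81, 0.89 and 1.80 TPM with AA+2i. The 6 libraries with AA lay above the 6 without it. The difference between AA and 2i was 2.86 ± 0.71 (SE, log2; edgeR adjusted p = 0.0271), on 1 to 76 counts a library. That p was 0.0519 to 0.106 without 2i A, AA B, 2i B or AA C. Oas1b, Oas3 and Oasl1 passed in no comparison.

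Of the direct antiviral effectors, Rsad2 (viperin, mm9 chr12:27127618-27141317) was ordered AA, DMSO, AA+2i and 2i by its means, in which AA overlapped DMSO and AA+2i overlapped 2i. It was at 10.6, 10.4 and 7.61 TPM with DMSO, 16.8, 10.8 and 9.24 TPM with AA, 4.57, 3.38 and 2.26 TPM with 2i and 5.15, 5.90 and 2.77 TPM with AA+2i. The 6 libraries with 2i lay below the 6 without it. It fell by 1.31 ± 0.31 (SE, log2; edgeR adjusted p = 0.0385) with 2i and was higher with AA than with 2i by 1.69 ± 0.31 (adjusted p = 0.00559). The first call was lost, with an adjusted p of 0.0527 to 0.159, without any 1 of the 9 libraries other than AA A, AA C and AA+2i C. With AA+2i against DMSO the change was −0.86 ± 0.31 (adjusted p = 0.113). Mx1 stayed between 0.08 and 0.55 TPM, and Bst2 was at 202, 434 and 386 TPM with DMSO and 363, 500 and 702 TPM with 2i, a difference that did not pass.

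Parp14 (mm9 chr16:35832960-35871630), an ADP-ribosyltransferase, was at 3.73, 3.15 and 2.88 TPM with DMSO, 6.24, 4.14 and 3.97 TPM with AA, 1.62, 1.27 and 1.45 TPM with 2i and 3.21, 3.42 and 2.21 TPM with AA+2i. The conditions DMSO, AA and 2i did not overlap one another. Parp14 fell by 0.99 ± 0.23 (SE, log2; edgeR adjusted p = 0.0397) with 2i and was higher with AA than with 2i by 1.55 ± 0.24 (adjusted p = 0.0019). The first p was 0.0515 to 0.175 without any 1 of the 11 libraries other than AA A. Its partner Parp9 was more abundant, at 15.6 to 46.7 TPM, and did not pass.

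Isg15, the ubiquitin-like modifier, was at 1.66 to 13.5 TPM and its protease Usp18 at 0 to 0.25 TPM. Trim25, a ligase reported to attach it but not the only such ligase, was at 21.5 to 43.4 TPM. Isg15 had its highest value, 13.5 TPM, in AA+2i C, and the group with AA+2i (6.78, 5.11 and 13.5 TPM) overlapped DMSO (1.66, 3.16 and 5.69 TPM). Neither tested gene of this role passed. The 3 Ifit genes, which bind foreign RNA ends, stayed at or under 0.76 TPM, so the response element matches printed for Ifit1 stood beside at most 5 counts in any library.

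The interferon-inducible GTPases Gbp2, Gbp3, Igtp and Irgm1, which act on vacuoles that hold pathogens, passed in no comparison. Gbp2 was the most abundant at 12.7 to 53.0 TPM. Its AA libraries (44.9, 32.5 and 53.0 TPM) lay above those with 2i (18.5, 12.7 and 20.1 TPM), with an edgeR adjusted p of 0.0679 for a log2 difference of 1.18 ± 0.36 (SE). On normalised counts, Igtp was the only member whose AA libraries all lay below those with 2i. In TPM these groups overlapped, at 11.57, 8.75 and 8.61 TPM with AA and 11.46, 12.71 and 11.09 TPM with 2i.

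The antigen processing members Psmb9 and Tap1 share a promoter region but did not share a pattern. Psmb9 encodes a subunit of the immunoproteasome and Tap1 a subunit of the transporter that carries peptides to class I molecules. Their start sites lie 226 bases apart on opposite strands, and the 225 bases between them (GRCm38.p6 chr17:34187331-34187555, written on the Tap1 strand, with no match of either motif) are shown because both genes start at its ends.
Psmb9-Tap1: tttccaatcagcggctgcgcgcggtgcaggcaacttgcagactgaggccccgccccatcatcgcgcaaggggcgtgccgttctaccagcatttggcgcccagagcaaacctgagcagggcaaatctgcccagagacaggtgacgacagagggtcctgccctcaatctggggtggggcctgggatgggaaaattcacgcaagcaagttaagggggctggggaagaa

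Psmb9 was at 1.43, 3.04 and 3.60 TPM with DMSO, 3.53, 8.90 and 12.9 TPM with AA, 1.38, 0.73 and 1.87 TPM with 2i and 2.04, 1.97 and 3.78 TPM with AA+2i. The lowest AA library overlapped DMSO and AA+2i, but not 2i. The difference between AA and 2i was 2.54 ± 0.60 (SE, log2; edgeR adjusted p = 0.0202), and its p was 0.0584 to 0.0988 without 2i A, AA B, 2i B or AA C. Tap1 was at 6.21, 27.9 and 10.1 TPM with DMSO, 7.91, 15.5 and 14.2 TPM with AA, 8.98, 13.1 and 15.6 TPM with 2i and 11.8, 9.70 and 12.5 TPM with AA+2i, with a difference between AA and 2i of −0.17 ± 0.46. The log2 ratio of Psmb9 to Tap1 in TPM was −1.16, −0.80 and −0.14 with AA and between −4.17 and −1.49 in the other 9 libraries. No test of this ratio was run. In the gene annotation used here for mm9 positions both genes overlap at their starts, unlike the RefSeq start sites above. The authors counted on RefSeq genes without strand, and whether any reads were shared between these genes was not measured. Psmb8, the neighbouring immunoproteasome gene, was at 4.02, 14.8 and 22.98 TPM with AA and 1.85, 1.87 and 3.26 TPM with 2i (log2 difference 2.44 ± 0.74, edgeR adjusted p = 0.0677).

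**Figure D4:**
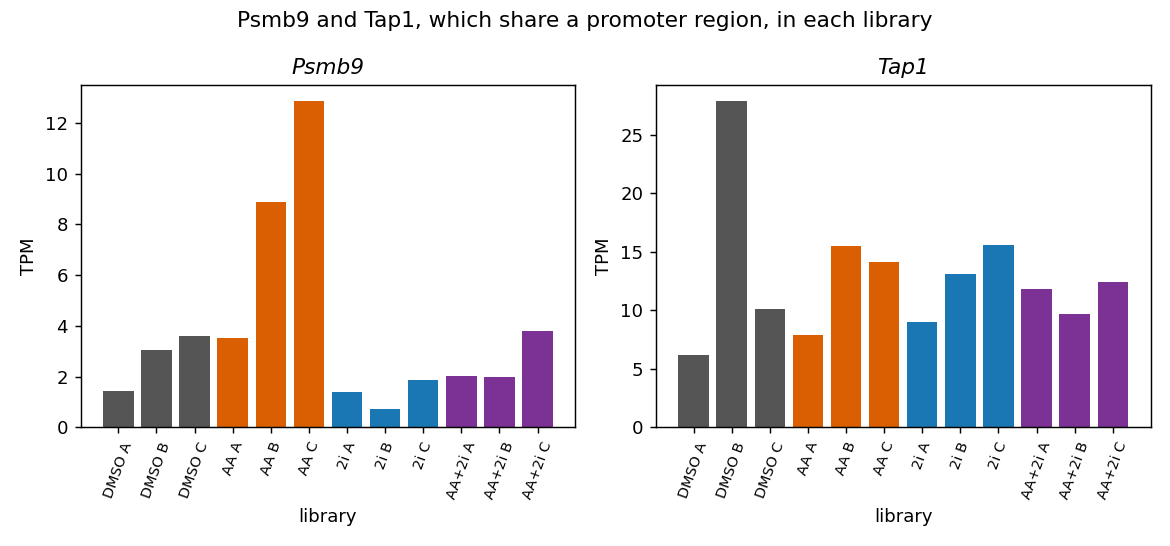
TPM (y axis, from 0) of Psmb9 (left) and Tap1 (right) in each of the 12 libraries (x axis), coloured by condition. Psmb9 reaches 8.90 and 12.9 TPM in AA B and AA C, whereas the highest Tap1 bar, at 27.9 TPM, is DMSO B.

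Of the remaining members, Trim21, an antibody receptor with ubiquitin ligase activity, was at 8.59, 9.16 and 9.37 TPM with DMSO, 14.3, 10 and 9.42 TPM with AA, 6.51, 5.90 and 5.73 TPM with 2i and 7.61, 9.11 and 7.02 TPM with AA+2i. The 2i libraries were the 3 lowest. Trim21 (mm9 chr7:109706436-109713983) was higher with AA than with 2i by 0.73 ± 0.20 (SE, log2; edgeR adjusted p = 0.0437), a call lost without any 1 of the 10 libraries other than DMSO A and DMSO B, at 0.0502 to 0.157. Xaf1, linked to cell death, was the most abundant of this role at 14.4 to 40.99 TPM. Ifi35 was at 7.59 to 25.1 TPM, Rtp4 at 0.07 to 1.01 TPM and Ifi44 at 0 to 0.06 TPM.

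**Figure D5:**
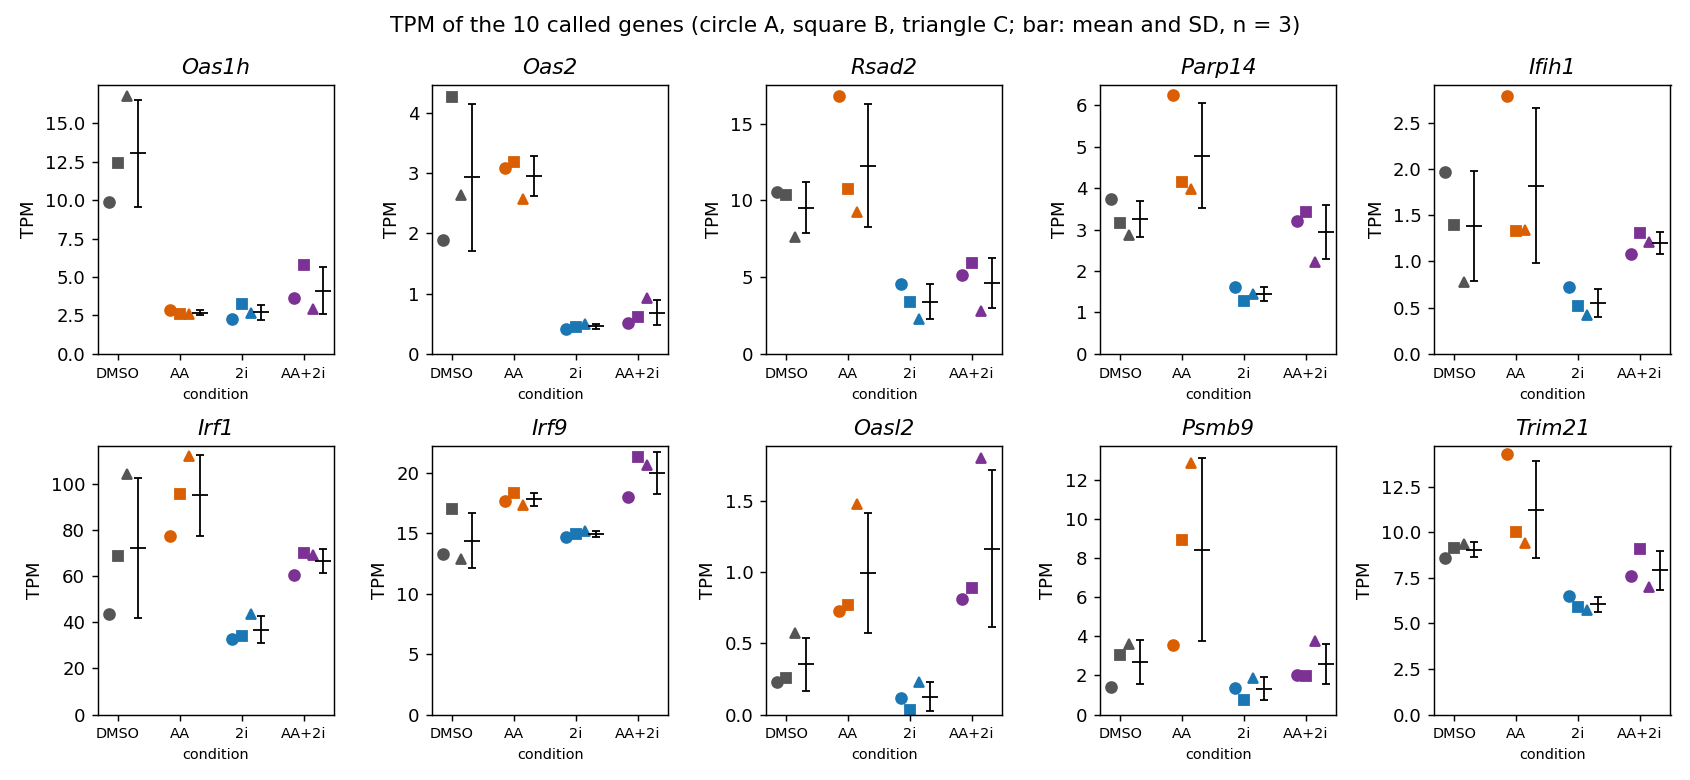
TPM (y axis, from 0) of the 10 interferon-stimulated genes that passed in at least 1 comparison, in the 4 conditions (x axis). Circles, squares and triangles are replicates A, B and C, and black bars are the mean and SD of 3 libraries. Oas1h is high with DMSO alone, and the 6 libraries with 2i are the lowest for Oas2 and Rsad2.

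The wider pathway was listed by role. All 9 receptor and Janus kinase genes were tested. Of these, Ifngr2 and Il28ra rose with AA+2i by 0.63 and 1.04 on the log2 scale, against 3.93% of all genes. Ifngr2 was lower with AA than with 2i (−0.65), against 3.57%. Of 8 tested sensor adaptors and kinases and 6 negative regulators, none passed in edgeR. At an unadjusted p under 0.05, AA against 2i had 1 adaptor or kinase in each direction and no negative regulator. Of all 13400 genes, 1543 were up and 1068 down at that threshold.

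Of 22 other interferon targets tested, Trim30a fell with 2i (−2.53), against 2.83% of all genes, and Herc6 fell with AA+2i (−1.40), against 4.41%. With AA 5 of the 22 were higher than with 2i, against 5.88% of all genes, namely Cmpk2 (1.29), Ddx60 (3.94), Sp110 (2.06), Trim30a (2.36) and Apobec3 (0.77). Ddx60 had at most 20 counts. Cmpk2 encodes a nucleotide kinase and Apobec3 a cytidine deaminase that acts on viral DNA. Of 4 further GTPases tested, Gbp4 and Tgtp1 fell after 2i (−3.08 and −2.78) and after AA+2i (−2.66 and −2.59). Gbp4, Tgtp1 and Gbp6 were higher with AA than with 2i (2.90, 2.51 and 1.55), and Irgm2 rose with AA+2i (0.95). The shares of all genes were 2.83%, 4.41%, 5.88% and 3.93%, in that order.

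Gbp4 had 49, 64.2 and 63.0 TPM with DMSO, 55.7, 36.2 and 59.7 TPM with AA, 6.66, 5.44 and 6.12 TPM with 2i and 7.77, 8.99 and 7.37 TPM with AA+2i. The 6 libraries with 2i lay far below the 6 without it (edgeR adjusted p = 6.34e-05 for 2i against DMSO).

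Among 12 genes of MHC class I and peptide loading, changes went in both directions. H2-T23, a non-classical class I gene, fell with AA (−1.42) and was lower with AA than with 2i (−1.60), as was B2m (−1.29), the class I light chain, whereas the aminopeptidase Erap1 was higher (1.49). Nlrc5, an activator of class I genes, rose after 2i (2.46) and after AA+2i (2.42) on at most 11 counts. Of all genes, 0.47% fell with AA, and 3.57% were lower and 5.88% higher with AA than with 2i. The share that rose was 1.59% with 2i and 3.93% with AA+2i. How far reads are shared among the class I genes was not measured.

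Members also varied with the replicate letter. On normalised counts, replicate C lay above replicate A in all 4 conditions for 18 of the 35 tested members, against 34.4% of all genes. It lay below replicate A in all 4 for 7, against 32.8%. The 18 had transcripts of 48.6% to 56.9% GC (median 53.1%) and included Irf1, Isg15, Bst2, Oas1a, Psmb8 and Psmb9. The 7, of 43.9% to 52.4% GC (median 46.5%), were Ddx58, Eif2ak2, Ifit2, Mx1, Rsad2, Trim25 and Parp9. Zbp1, a sensor of Z-form nucleic acid, was at 7.38, 9.34 and 16.4 TPM in DMSO A, B and C and at 11.2, 18.5 and 26.9 TPM with AA, whereas Eif2ak2 was at 50.9, 33.5 and 26.5 TPM and at 51.2, 27.8 and 23.7 TPM. The part of GC content in this was not tested.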

How the data were processed

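RNA of 12 libraries (4 conditions, 3 replicates) had been sequenced as single-end reads without strand information. Trimming and quality filtering were done by the authors, who aligned with Bowtie2 to RefSeq genes of mm9 and estimated expression with RSEM (version 1.2.4 per the submitters' processing notes). They deposited expected counts, which need not be whole, TPM and FPKM, both scaled within each library. One malformed TPM cell of a gene that is no member was recomputed from the deposited FPKM.

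Rounded values of the expected counts entered edgeR 4.0.16 (R 4.3.3, quasi-likelihood, RLE factors) in 1 model of the 4 conditions over the 13400 genes with at least 10 counts in 3 libraries. Benjamini-Hochberg adjusted p under 0.05 was called. Standard errors are the log2 fold change divided by the root of F. EBSeq, which the authors used, was not run. In simulated counts of AA against DMSO over 13400 genes, changes of 2 on the log2 scale were found in 76.0% and changes of 1 in 8.67%. Of the calls, 4.87% were false. The simulated counts were drawn independently, with no GC bias and no variation shared within a letter. Changes were put into AA and AA+2i alike, and these rates need not hold in the real libraries.

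Groups followed the sample labels. Alternatives were TMM factors, DESeq2 1.42.0, limma 3.58.1 on log2(TPM + 1), other count minimums, only the 2 groups compared, a replicate block, GC correction, and leaving out letters or libraries. The members and lists were chosen with earlier results of these data known. Values in every library are given for members called in a comparison and levels for the most abundant member of each role, and called genes of the pathway lists are named. Further values of Oas1a, Tap1, Gbp2, Psmb8, Isg15, Igtp, Eif2ak2, Zbp1 and Gbp4 were added after they were seen. Of the pathway genes listed, 5 were not matched by name. One listed pathway factor is not reported here. Mm9 positions are from its gene annotation.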

Additional observations from a re-analysis of the deposited data

How the results depend on the processing

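Counts of called members moved with the processing, as did the share of all genes called, given in percent after each. With AA against DMSO (1 called, 1.34%), the count was 0 with only the 2 groups compared (0%), 3 with GC correction (3.96%), 4 with the replicate block (4.43%), 10 with both (10.9%), and 0 to 1 without a letter or library. With 2i (4, 4.42%) it was 2 with only the 2 groups compared (1.4%), 9 with the replicate block (13.3%), 15 with block and GC correction together (24.9%), and 0 to 4 on leaving out. With AA+2i (3, 8.34%) it was 7 in DESeq2 (14%), 0 with only the 2 groups compared (4.49%), 14 with the replicate block (31.6%), 8 with GC correction (19.3%), 16 with both (36.4%), and 0 to 3 on leaving out. With AA against 2i (8, 9.45%) it was 14 in DESeq2 (13.2%), 5 with at least 10 counts in every library (6.65%), 4 with only the 2 groups compared (6.57%), 17 with the replicate block (16.9%), 16 with GC correction (19.0%), 23 with both (29.9%), and 0 to 10 on leaving out. The interaction (0, 0.0149%) had 1 call in DESeq2 (0.194%), in limma (0.097%) and with GC correction and block together (0.173%), and 0 on leaving out.

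The members' median moved, by more than its spread over the letters, with limma on log2(TPM + 1) to 0.27 for AA, −0.033 for AA+2i and 0.20 for the interaction. With GC correction it was 0.26 for AA+2i and 0.65 for AA against 2i, and with the block added 0.27 and 0.66. Leaving out letters or libraries gave 0.20 to 0.41 for AA, −0.67 to −0.34 for 2i, 0.012 to 0.53 for AA+2i, 0.62 to 0.80 for AA against 2i and 0.16 to 0.50 for the interaction. No called member changed sign under any alternative run. The cause of these moves was not tested, although only the 2 groups compared and leaving out libraries both reduce the samples in the fit.

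Same-letter libraries deviated together in many but not all condition pairs (correlations from −0.66 to 0.94, mean 0.45, 18 pairs). Over 36 pairs of different letters the mean was −0.22. Deviations were taken from the mean of each condition, which ties the second mean to the first, so it is no separate baseline. Since not every pair was above 0.1 and no label ties a letter to a shared culture, the letters were not taken as pairs, and the replicate block stands here alone. The limma scaling shifted the median of all genes by −0.13 with 2i, −0.15 with AA+2i and 0.10 for AA against 2i. The 6 untested members fell below the count minimum of the main fit and entered only the fit with no count filter. Members under 1 TPM rest on few reads.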
